A study of Mus musculus with 11 samples.

Results

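Ptgs2, Cebpb and Socs3 are genes that many cell types switch on within hours of contact with inflammatory cytokines. They were picked by gene name from a table of RNA sequencing counts of mouse gingival epithelium, and each had 1 row, so that all 3 were found among the 178 genes of the table. Ptgs2 encodes cyclooxygenase-2, the inducible enzyme that starts the synthesis of prostaglandins from arachidonic acid. Cebpb encodes C/EBPβ, a basic leucine zipper transcription factor that acts downstream of IL-6, IL-1 and IL-17. Socs3 encodes a suppressor of cytokine signalling, which binds receptors of the gp130 family and the JAK kinases attached to them and so closes a negative feedback loop on STAT3. In periodontitis, prostaglandins made through cyclooxygenase-2 are known for their part in the loss of alveolar bone.

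The 11 libraries came from 3 groups of male B6 mice whose age the labels do not state. In the removal group (n = 4) a silk thread was tied around the upper second molars and taken off on day 3. In the ligature group (n = 3) the thread stayed in place, where such a thread collects plaque and brings on periodontitis. Naive mice (n = 4) carried no thread. The day of tissue collection is not stated. Whether each library stands for its own animal is not stated either, and p-values then cover only the spread between these libraries. In all groups the gingiva was soaked in the enzyme Dispase and the epithelial sheet was lifted off before RNA was taken, so this handling is shared by naive samples too.

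The genes of the table held 282274 to 503570 counts per library, which is part of a library and not its depth. In DESeq2 with a term for 2 library sets, the smaller of each gene's unadjusted p-values against naive never passed 0.0103, as in a table chosen for differences between these groups. Counts of changed genes are therefore given beside the share of all 176 tested genes that were called, and p-values were adjusted over those genes. If the table was chosen on these same libraries, the adjusted p-values are not error rates over all genes sequenced. Other fits to the same libraries then show how values depend on the processing and are not independent support. Of 39 marker genes of 9 cell types, 2 were in the table. The keratin gene Krt10, a marker of differentiating keratinocytes, had 81960 to 187178 normalised counts over the 11 libraries, and the other was the macrophage marker Cd68.

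All 3 genes were lower with the ligature in place than in naive epithelium. The order of the mean fall was Ptgs2, then Socs3, then Cebpb: the ligature group kept 30.7% of the naive mean of Ptgs2, 43.2% of that of Socs3 and 63.3% of that of Cebpb. After removal of the thread, Ptgs2 and Socs3 were still lower than in naive epithelium, at 39.3% and 55.5% of the naive mean. Cebpb stood at 80.0% of the naive mean and did not pass the test. Between removal and ligature none of the 3 genes passed the test. With a term for the library sets described further on, Cebpb passed for removal against naive and Socs3 for removal against ligature. That fit called 126 of the 176 tested genes in the first of these comparisons and 47 in the second. In a sheet of tissue, fewer cells that express a gene and less RNA per cell cannot be told apart.

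**Figure D1:**
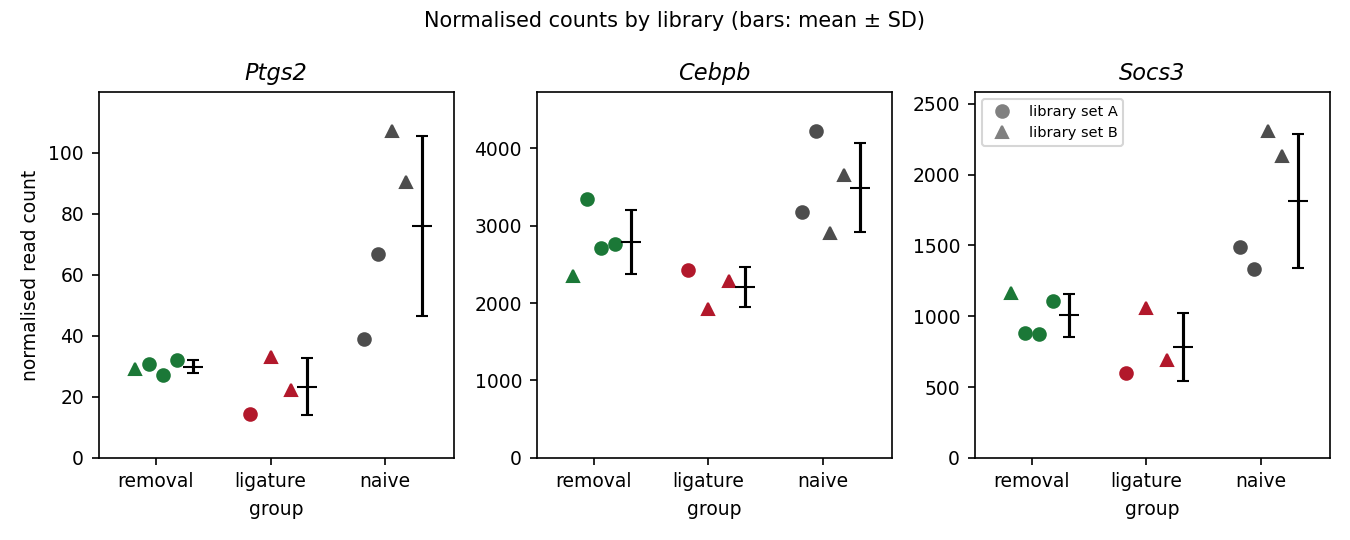
Normalised read counts of Ptgs2, Cebpb and Socs3 (vertical axes, from 0) in each library of the removal, ligature and naive groups, with circles for library set A, triangles for set B and bars for the mean ± SD. All ligature libraries lie below all naive libraries for each gene, and the removal libraries lie below all naive libraries for Ptgs2 and Socs3 but not for Cebpb.

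Ptgs2 (ENSMUSG00000032487) is on chromosome 1, plus strand. The RefSeq promoter table (build GRCm38.p6) gave its first 250 bases before the annotated start, at chr1:150099781-150100030, shown because they hold a match to the C/EBP motif TTGCNNAA, in capitals. The 30 bases after that start, at chr1:150100031-150100060, hold a match to the cyclic AMP response element half-site TGACG on the reverse strand and a match to the E-box CACGTG. Those matches overlap and are in capitals as 1 run. The last sequence is a site just after the stop codon (bases 4 to 33 of the 3′ UTR, GENCODE M21, the same build), shown because it repeats the heptamer TATTTAT, in capitals, which proteins of the Zfp36 family are known to bind.
Ptgs2 before the start: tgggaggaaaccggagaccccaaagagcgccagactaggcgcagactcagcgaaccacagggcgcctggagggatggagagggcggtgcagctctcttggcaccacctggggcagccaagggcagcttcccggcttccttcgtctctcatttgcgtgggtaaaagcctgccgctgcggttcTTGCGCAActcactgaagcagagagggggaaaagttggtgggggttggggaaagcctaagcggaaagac
Ptgs2 after the start: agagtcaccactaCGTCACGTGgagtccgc
Ptgs2 3′ UTR site: tctactgaccaTATTTATTTATTTATgtga

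Motifs were sought on both strands of 250 bases before and 50 bases after each start. Of 32851 such windows in the table, 10.8% held the C/EBP motif, 20.8% the TGACG half-site and 7.15% the E-box. The C/EBP match of Ptgs2 begins at position -69 from the start. Neither the STAT motif TTCNNNGAA nor a loose NF-kappaB pattern was in these letters, which says nothing of sites elsewhere. That NF-kappaB pattern fixes its outer bases and leaves its middle bases free. A match to it is therefore not taken as an NF-kappaB site. The heptamer TATTTAT occurred 4 times, overlaps included, in the first 500 bases of the Ptgs2 3′ UTR. Of 14304 genes with a 3′ UTR that long, 11.8% had at least 1, and Cebpb and Socs3 had 0 there. In the whole 3′ UTR it occurred 6 times in Ptgs2 (2445 bases), 2 times in Socs3 (1474 bases) and 0 times in Cebpb (506 bases). A match to a motif is a description of the sequence and not evidence of binding in this tissue.

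Ptgs2 was a gene of few reads, with 17 to 103 raw counts per library. Its normalised counts were 29.0, 30.9, 27.2 and 32.1 in removal replicates 1 to 4. In ligature replicates 1 to 3 they were 14.5, 33.1 and 22.3, and in naive replicates 1 to 4 they were 39.0, 66.8, 107.0 and 90.5. Every removal and every ligature library was below the lowest naive library. The closest libraries were ligature replicate 2 at 33.1 and naive replicate 1 at 39.0. The raw counts of those libraries, 34 in ligature replicate 2 (exact Poisson 95% interval 23.5 to 47.5) and 37 in naive replicate 1 (26.1 to 51.0), have intervals that overlap; these cover counting error only.

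With the ligature, Ptgs2 fell to 23.3 ± 9.34 normalised counts (SD, n = 3), against 75.8 ± 29.5 in naive epithelium (n = 4). The log2 fold change was -1.70 ± 0.39 (SE; edgeR quasi-likelihood test with Benjamini-Hochberg adjustment, adjusted p = 0.00332). After removal it was 29.8 ± 2.14 (n = 4), or -1.34 ± 0.34 on the log2 scale relative to naive (edgeR adjusted p = 0.0124). Both calls held in each of the 20 other fits tried, with log2 fold changes of -2.04 to -1.33 for ligature and -1.55 to -1.04 for removal. The coefficient of variation was 7.17% among removal libraries, below the 18.5% that counting alone gives at these depths, so the small spread there may understate the error. Among ligature libraries it was 40.1%, and among naive libraries 39.0%.

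Socs3 (ENSMUSG00000053113) is on chromosome 11, minus strand. The RefSeq table (GRCm38.p6) places its window 180 bases upstream of the start of the coding transcript in GENCODE M21, so the core promoter of that transcript lies outside it. The 250 bases before the RefSeq start, at chr11:117969367-117969616 and read on the minus strand, hold 1 match to the STAT motif TTCNNNGAA. STAT3 is known to bind this kind of site. The stretch also holds 1 match to the loose NF-kappaB pattern described above. Both matches are in capitals and are why the stretch is shown.
Socs3 before the start: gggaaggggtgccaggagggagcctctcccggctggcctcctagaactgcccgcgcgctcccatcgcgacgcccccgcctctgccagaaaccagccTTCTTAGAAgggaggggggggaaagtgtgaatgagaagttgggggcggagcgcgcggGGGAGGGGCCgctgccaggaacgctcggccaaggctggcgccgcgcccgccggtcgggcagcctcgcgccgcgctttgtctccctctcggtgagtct
The STAT match begins at position -154, and 8.3% of all windows held such a match. The loose NF-kappaB pattern was in 20.7% of windows. Of the 3 genes, Socs3 was the one whose window held the STAT letters.

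Socs3 had 707 to 2424 raw counts per library. Its normalised counts were 1162, 883.6, 873.1 and 1105 in removal replicates 1 to 4, and 602.4, 1057 and 693.7 in ligature replicates 1 to 3. Naive replicates 1 to 4 had 1486, 1333, 2307 and 2130. No removal or ligature library reached the lowest naive library, while ligature replicate 2 lay within the range of the removal libraries.

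With the ligature, Socs3 fell to 784.3 ± 240.3 normalised counts (SD, n = 3), against 1814 ± 476.5 in naive epithelium (n = 4). The log2 fold change was -1.21 ± 0.23 (SE; edgeR adjusted p = 0.00159). After removal it was 1006 ± 149.3 (n = 4), or -0.85 ± 0.21 on the log2 scale relative to naive (edgeR adjusted p = 0.0124). The removal call was lost with TMM factors computed over the table (-0.66, edgeR adjusted p = 0.0503; 0.000825 to 0.0503 over the 20 other fits).

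Cebpb (ENSMUSG00000056501) is on chromosome 2, plus strand, and has a single exon. In GENCODE M21 its span overlaps that of Tmem189, a comparison of whole genes that did not look at exons. Whether the authors' counting used strand is not given in the sources used here. Reads of a shared stretch may therefore come from either gene. The 250 bases before the RefSeq start of Cebpb, at chr2:167688665-167688914 (GRCm38.p6), hold 3 matches to the half-site TGACG or its reverse complement. The stretch also holds 1 match to the loose NF-kappaB pattern described above. All these matches are in capitals and are why the stretch is shown. The 30 bases after that start, at chr2:167688915-167688944, hold the TATA motif TATAAA, in capitals.
Cebpb before the start: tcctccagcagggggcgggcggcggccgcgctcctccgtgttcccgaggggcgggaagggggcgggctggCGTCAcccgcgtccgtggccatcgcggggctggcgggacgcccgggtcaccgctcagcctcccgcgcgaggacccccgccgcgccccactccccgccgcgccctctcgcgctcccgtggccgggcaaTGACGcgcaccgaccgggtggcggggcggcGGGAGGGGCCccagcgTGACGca
Cebpb after the start: gcccgttgccaggcgccgcctTATAAAcct
The half-site matches begin at positions -180, -53 and -7. The TATA motif was in 13.6% of all windows, and the AP-1 motif TGANTCA, in 7.81% of windows, was in none of the 3 genes' windows.

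Cebpb was the most abundant of the 3 genes per length. Per kilobase of annotated exon, normalised counts averaged 1857 ± 273.9 in removal, 1470 ± 174.0 in ligature and 2322 ± 383.9 in naive libraries (SD, n = 4, 3 and 4). On the same scale Socs3 averaged 348.0 ± 51.6, 271.3 ± 83.1 and 627.5 ± 164.8 in the same groups, and Ptgs2 6.51 ± 0.467, 5.09 ± 2.04 and 16.6 ± 6.45. This order of the 3 genes held in each group, with no overlap between genes.

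In normalised counts, Cebpb stood at 2352, 3347, 2713 and 2762 in removal replicates 1 to 4. Ligature replicates 1 to 3 had 2426, 1920 and 2289, and naive replicates 1 to 4 had 3176, 4223, 2910 and 3658. All ligature libraries were below all naive libraries. Removal replicate 2 lay within the naive range, and removal replicate 1 within the ligature range.

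Cebpb fell to 2211 ± 261.7 normalised counts with the ligature (SD, n = 3), against 3492 ± 577.4 in naive epithelium (n = 4), or -0.66 ± 0.15 on the log2 scale (SE; edgeR adjusted p = 0.00332). With TMM factors the value was -0.30 (edgeR adjusted p = 0.0367; 0.000103 to 0.0367 over the 20 other fits). After removal it was 2793 ± 411.9 (n = 4), a log2 fold change of -0.32 ± 0.14 against naive (95% interval -0.62 to -0.023; edgeR adjusted p = 0.0743). That value passed the test with a term for the library sets (-0.38, edgeR adjusted p = 0.0156; 0.0156 to 0.377 over the 20 other fits) and without removal replicate 2 (-0.42, edgeR adjusted p = 0.0375). The first of these fits called 86 tested genes lower and the second 38.

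**Figure D2:**
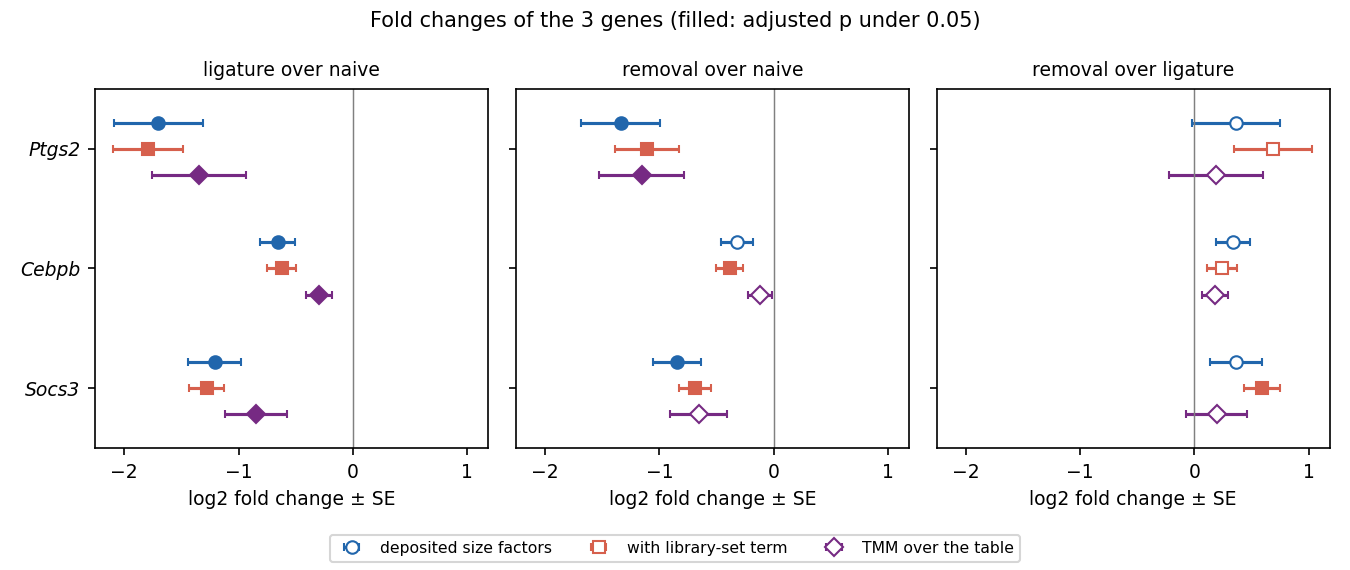
Log2 fold changes ± SE (horizontal axes) of the 3 genes for ligature over naive, removal over naive and removal over ligature, under the deposited size factors, with a term for the library sets and with TMM factors over the table. Filled symbols have an adjusted p under 0.05; every symbol of the first panel is filled and left of 0, and in the third panel the filled symbol is that of Socs3 with the library-set term, at 0.59.

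For ligature against naive, 3 of the 3 genes were called lower, where 56.8% of the 176 genes tested were. A further 28.4% were called higher, which makes 85.2% in either direction. The groups did not overlap for 3 of 3, with the ligature lower, where 48.9% of tested genes had that pattern and 25.6% had the opposite one. For removal against naive, 2 of 3 were called lower, against 24.4% of tested genes (37.5% in either direction), and 2 of 3 had groups that did not overlap in that direction, against 27.8%. Since the table appears to have been chosen for such differences, these shares do not set the 3 genes apart. The deposited size factors gave all tested genes a median log2 fold change of -0.38 for ligature over naive, and TMM gave -0.02. TMM factors over the table assume that most of its genes did not change, which a table chosen for differences need not meet. With TMM, Ptgs2 was at -1.34, Socs3 at -0.85 and Cebpb at -0.30. A change of factors shifts all genes nearly alike. Their place below the median was therefore fixed and is no support.

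Between removal and ligature, 0 of the 3 genes were called by edgeR, where 19.9% of tested genes were called in either direction, 17% higher and 2.84% lower. DESeq2 called 0 of 3 as well, where it called 51 genes, 43 higher and 8 lower. Before adjustment Cebpb was under 0.05 (edgeR unadjusted p = 0.0438). The share of tested genes under that unadjusted threshold was not counted, so the value does not set Cebpb apart. The log2 fold changes were all positive and of like size: 0.36 ± 0.39 for Ptgs2 (SE; 95% interval -0.48 to 1.21), 0.36 ± 0.23 for Socs3 (-0.14 to 0.86) and 0.34 ± 0.15 for Cebpb (0.011 to 0.66). Their adjusted p-values in edgeR were 0.445, 0.239 and 0.121. These intervals leave room for no difference in Ptgs2 and Socs3 and also for a rise of the size by which Cebpb fell with the ligature. Groups overlapped for each of the 3 genes, where 23.3% of tested genes had every removal library above every ligature library and 6.25% every one below.

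The library sets named above were read from the authors' batch-corrected values, which followed 1 straight line per gene against the normalised counts in set A and another in set B. Set A held removal replicates 2, 3 and 4, ligature replicate 1 and naive replicates 1 and 2. Set B held removal replicate 1, ligature replicates 2 and 3 and naive replicates 3 and 4. The labels give no batch, so what the sets stand for is not known.

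Ptgs2 and Socs3 were higher in set B among naive libraries, and Cebpb was not. In set B the naive libraries had 90.5 and 107.0 normalised counts of Ptgs2, against 39.0 and 66.8 in set A. Socs3 had 2130 and 2307 in set B and 1333 and 1486 in set A, and Cebpb had 2910 and 3658 in set B and 3176 and 4223 in set A. Within sets the mean falls with the ligature were alike in relative size, on few libraries. The ligature group held 27.4% of the naive mean of Ptgs2 in set A (n = 1) and 28.1% in set B (n = 2). The values were 42.7% and 39.5% for Socs3, and 65.6% and 64.1% for Cebpb.

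The removal group was less even across the sets. Removal libraries held 56.8% of the naive mean of Ptgs2 in set A (n = 3) and 29.4% in set B (n = 1). For Socs3 the values were 67.7% in set A and 52.4% in set B, and for Cebpb 79.5% and 71.6%. Within each set, every removal library had more Socs3 and more Cebpb than every ligature library of that set, and for Ptgs2 this held in set A alone. Set A compares 3 removal libraries with 1 ligature library and set B 1 with 2. Trib1, Socs4, Nfkbia and Zfp36, pathway genes described further on, had that pattern in each set. Nfkbiz, Myd88, Dusp1, Zfp36l1, Defb3 and Defb14 did not, and the share over all tested genes was not counted. With a term for the sets, the Socs3 difference between removal and ligature was 0.59 ± 0.16 on the log2 scale and passed the test (edgeR adjusted p = 0.0280; 0.0280 to 0.730 over the 20 other fits), where 0.36 without the term did not. That fit called 47 of the 176 tested genes in this comparison, 37 higher and 10 lower. Set A has 1 ligature library and set B 1 removal library, so the Socs3 value rests on few libraries.

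The authors' own batch-corrected values gave the same order of groups. Corrected Ptgs2 averaged 34.4 ± 6.87 in removal, 22.4 ± 4.84 in ligature and 72.1 ± 17.1 in naive libraries (SD, n = 4, 3 and 4). Corrected Socs3 averaged 1085 ± 126.2, 767.9 ± 155.7 and 1750 ± 177.1, and corrected Cebpb 2733 ± 302.2, 2336 ± 169.8 and 3465 ± 506.4, in the same groups. After correction every removal library had more Socs3 (1012 to 1274) than every ligature library (652.5 to 945.0). The same held for Cebpb (2557 to 3185 against 2207 to 2528), while for Ptgs2 these groups overlapped (24.7 to 39.9 against 19.3 to 27.9). The share of all genes that separate on the corrected scale was not counted.

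Ratios between the genes within a library do not depend on any size factor. They are not per length, so only their change between libraries is read. Removal libraries had 25 to 35 Ptgs2 counts per 1000 Socs3 counts, ligature libraries 24.0 to 32.2 and naive libraries 26.3 to 50.1. Naive replicate 1, at 26.3, lay within the range of the other groups, and the other naive libraries, at 42.5 to 50.1, lay above it. Ptgs2 counts per 1000 Cebpb counts were 9.23 to 12.3 in removal, 5.97 to 17.2 in ligature and 12.3 to 36.8 in naive libraries. Cebpb counts per Socs3 count were 2.02 to 3.79 in removal, 1.82 to 4.03 in ligature and 1.26 to 3.17 in naive libraries. The groups overlapped in this last ratio. Within set B it was 2.02 in the removal library, 1.82 and 3.30 in the ligature libraries and 1.26 and 1.72 in the naive libraries.

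Across the 11 libraries Ptgs2 and Socs3 followed each other, and Cebpb followed other genes. Likeness was measured as Pearson's r of log2(normalised count + 1), among 161 other genes with a mean of at least 10 normalised counts, and is given as a description; all points share libraries, size factors and group differences. Among the genes most like Ptgs2 were Socs3 (r = 0.94) and Fam71a (0.94). For Socs3 they were Ccn1 (0.96), a secreted matrix-associated protein, then Ptgs2 and Fam71a (0.94). Fam71a passed that minimum through the naive group alone: it averaged 6.75 ± 4.66 normalised counts in removal, 1.89 ± 1.73 in ligature and 68.9 ± 59.3 in naive libraries (SD, n = 4, 3 and 4), so its r sets naive values against values near 0. For Cebpb they were Rab31 (0.96), a small GTPase of vesicle traffic, Tmcc1 (0.96) and Dnajb1 (0.96), a cochaperone of heat shock proteins. The median r over all 161 genes was 0.27 for Ptgs2, 0.28 for Socs3 and 0.68 for Cebpb.

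Cebpb ranked 53 among the genes most like Ptgs2 (r = 0.60) and 61 among those most like Socs3 (r = 0.49). Deviations from the group means, over the same 11 libraries, correlated at 0.79 between Ptgs2 and Socs3. They correlated at -0.69 between Cebpb and Socs3 and at -0.25 between Cebpb and Ptgs2. The library sets move with these deviations, in naive libraries as given above and in the other groups. Socs3 in set B was 1162 in removal, against at most 1105 in set A, and 693.7 and 1057 in ligature, against 602.4. Cebpb in set B was 2352 in removal, against 2713 to 3347 in set A, and 1920 and 2289 in ligature, against 2426. The part of the sets in the correlations was not tested.

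**Figure D3:**
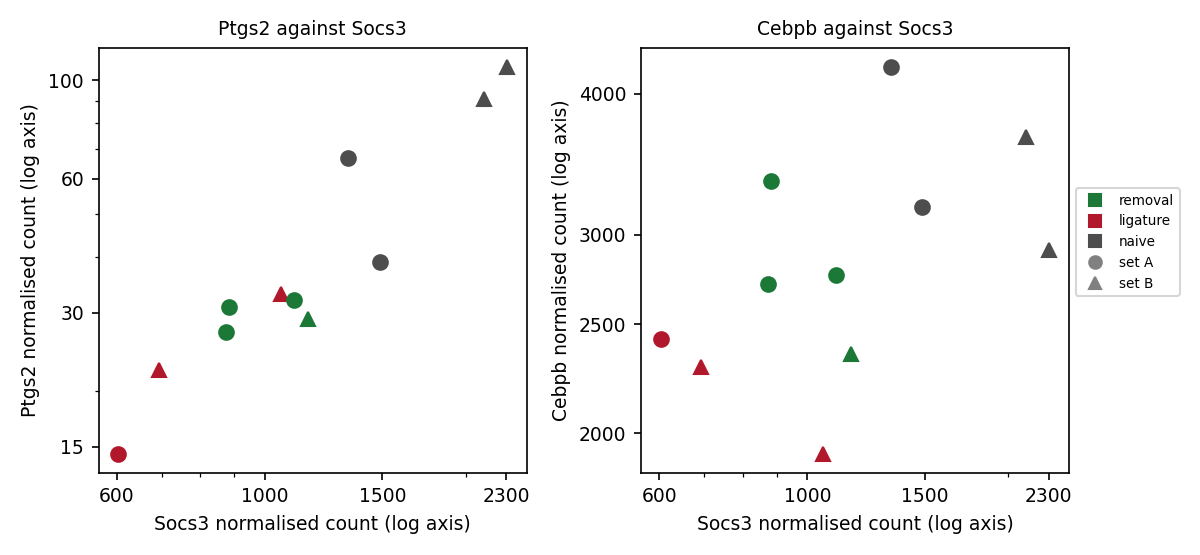
Normalised counts of Ptgs2 (left) and Cebpb (right) against those of Socs3, both axes logarithmic, 1 point per library, coloured by group, with circles for library set A and triangles for set B. Ptgs2 climbs with Socs3 over all groups (r = 0.94 on the log2 scale), and Cebpb is more scattered (r = 0.49).

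The pathway around these genes was followed through 9 lists with 148 genes in all. Of these, 10 genes besides the 3 were in the table: Trib1, Socs4, Myd88, Nfkbia, Nfkbiz, Dusp1, Zfp36, Zfp36l1, Defb3 and Defb14. No gene of the lists of cytokine ligands, cytokine receptors, or JAK kinases and STAT factors was in the table (0 of 27, 0 of 16 and 0 of 11), and Ptgs2 was the one gene of 25 from the prostaglandin list. A gene outside the table may have been sequenced without being selected.

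With the ligature in place, 9 of the 10 fell relative to naive epithelium and 0 rose, where 56.8% of all tested genes fell. Their median log2 fold change was -0.75, against -0.38 over all tested genes. TMM factors put the median of all tested genes at -0.02. With them 5 of the 10 were called lower, Nfkbia, Nfkbiz, Zfp36, Defb3 and Defb14, and 1 higher, Socs4. Of the 176 tested genes, TMM called 50 lower and 64 higher. The 9 calls were 7 without ligature replicate 2, where those of Myd88 (-0.32) and Zfp36l1 (-0.24) were lost; that of Zfp36l1 was also lost without ligature replicate 3 (-0.22) or naive replicate 1 (-0.21).

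Among inhibitors of NF-kappaB, Nfkbia, which encodes IκBα, fell to 2043 ± 112.2 normalised counts with the ligature (SD, n = 3), against 4133 ± 618.2 in naive epithelium (n = 4; log2 fold change -1.02 ± 0.12, edgeR adjusted p = 0.000201). Nfkbiz, the nuclear IκBζ that IL-1 and IL-17 induce, fell by 0.88 on the log2 scale. Myd88, the adaptor of Toll-like and IL-1 receptors, fell by 0.41, a value that TMM brought to -0.05 with no call.

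Zfp36 encodes tristetraprolin, which binds AU-rich elements such as the Ptgs2 site shown above and promotes decay of the mRNA. It averaged 5882 ± 100.3 normalised counts in ligature libraries (SD, n = 3), against 11588 ± 1119 in naive libraries (n = 4), or -0.98 ± 0.12 on the log2 scale (edgeR adjusted p = 0.000201). Zfp36 and Ptgs2 were thus lower in the same libraries, as 56.8% of tested genes were called to be. A link between Zfp36 and Ptgs2 was not tested. Its relative Zfp36l1 fell by 0.24, and the direction turned to 0.13 with TMM and 0.12 with median-of-ratios factors. Dusp1, a phosphatase that switches off p38 and JNK kinases, fell by 0.54, a call lost with TMM (-0.17).

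Trib1, a pseudokinase known to drive degradation of C/EBP proteins, fell to 579.3 ± 69.4 normalised counts with the ligature (SD, n = 3), against 886.9 ± 85.8 in naive epithelium (n = 4). On the log2 scale this was -0.61 ± 0.16 (edgeR adjusted p = 0.00568), which TMM brought to -0.26 with no call. The beta-defensin genes Defb3 and Defb14, epithelial antimicrobial genes of the list of IL-17 and C/EBP targets, fell by 1.76 and 0.88. Socs4, which like Socs3 belongs to the SOCS family but is known as a regulator of the epidermal growth factor receptor, stood at 0.13 ± 0.09 for ligature over naive (edgeR adjusted p = 0.204), and with TMM it was called higher (0.49).

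After removal, 3 of the 10 fell relative to naive, where 24.4% of all tested genes fell, and 1 rose, where 13.1% did. Nfkbia fell by 0.59 and Zfp36 by 0.48 on the log2 scale, both also with TMM. With a term for the library sets 6 of the 10 were called lower, adding Dusp1 (-0.40), Myd88 (-0.30) and Zfp36l1 (-0.21), where that fit called 86 of the 176 tested genes lower. Defb14 fell by 0.53, a call lost with TMM (-0.33) and when removal replicate 1 or 3 or naive replicate 1, 3 or 4 was left out (-0.54 to -0.42). Socs4 rose to 731.0 ± 14.9 normalised counts (SD, n = 4), against 576.3 ± 45.7 in naive libraries (n = 4), or 0.34 ± 0.09 on the log2 scale (edgeR adjusted p = 0.0124). Socs3 and Socs4 thus differed from naive in opposite directions after removal.

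Relative to the ligature group, 4 of the 10 rose after removal and 0 fell. They were Nfkbiz (0.57), Zfp36 (0.49), Nfkbia (0.43) and Defb3 (1.90), where 17% of all tested genes rose. Zfp36 and Defb3 remained called with TMM. None of the 4 was called without removal replicate 2, removal replicate 4, or any 1 of the ligature replicates. Those fits called 0 of all tested genes, or 3 without ligature replicate 3, so the loss was one of the whole table. Without removal replicate 3 there were 2 calls, where 21 of all tested genes were called. With the numbers of replicates as a block there was 1, where 8 of all tested genes were called. Ptgs2, Socs3 and Cebpb had changes of 0.34 to 0.36 in this comparison, below those of these 4 genes. The 4 are listed because they were called, and differences between genes were not tested.

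**Figure D4:**
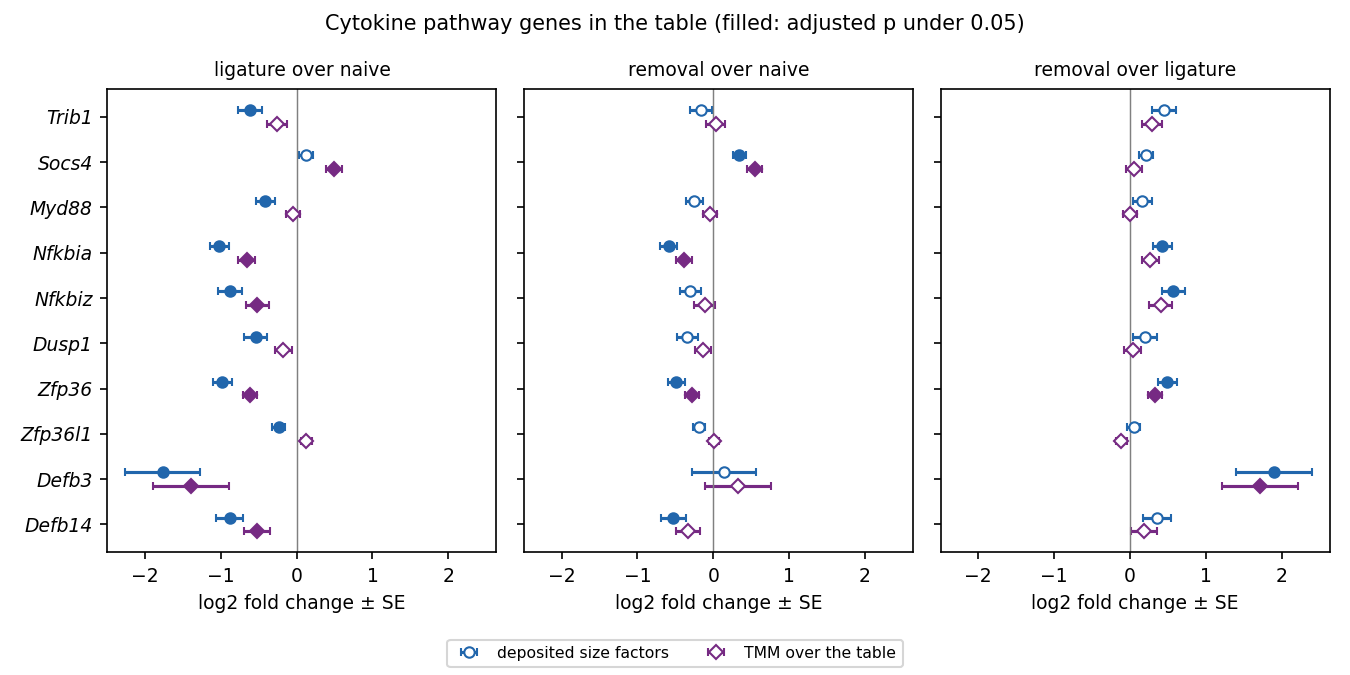
Log2 fold changes ± SE (horizontal axes) of the 10 cytokine pathway genes of the table besides the 3, for ligature over naive, removal over naive and removal over ligature, with the deposited size factors (circles) and with TMM factors over the table (diamonds); filled symbols have an adjusted p under 0.05. Nfkbia and Zfp36 are filled and left of 0 in the first 2 panels under both scalings, while Zfp36l1 crosses 0 with TMM.

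The macrophage marker Cd68 was also lower with the ligature. Cd68 averaged 221.9 ± 14.2 normalised counts in removal, 179.7 ± 10.2 in ligature and 286.8 ± 54.6 in naive libraries (SD, n = 4, 3 and 4), so that it held 77.4% and 62.7% of its naive mean in removal and ligature libraries. Cebpb held 80.0% and 63.3%. The Cd68 call for ligature against naive (-0.67 ± 0.16, edgeR adjusted p = 0.00402) was lost with TMM (-0.31). Of the 5 macrophage and monocyte markers Cd68 was the one in the table, and markers of neutrophils, T cells, B cells, fibroblasts, endothelial cells, dendritic cells and mast cells were not in it. Krt10 averaged 132468 ± 32347 in removal, 145632 ± 36955 in ligature and 93534 ± 11613 in naive libraries. It was called higher with the ligature (log2 fold change 0.64 ± 0.22, edgeR adjusted p = 0.0182), a call lost without naive replicate 4 or ligature replicate 1. The part of cell makeup in the values of Ptgs2, Cebpb and Socs3 was not tested.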

How the data were processed

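The table held 993339 rows, of which 178 named a gene. Its raw counts were deposited by the authors as whole numbers per gene. The authors also deposited normalised counts, here treated as a signal; dividing each raw count by a single factor for its library, between 0.757 and 1.21, returned them to within 0.0028. Batch-corrected values, deposited by the authors and treated as a score, keep that scale but include 7 negative values, from 3 genes. How they were corrected is not given in the sources used here. Per the submitters' processing notes, which state no roles, the build was GRCm39 and the tools were DESeq2 1.36.0, HTSeq 2.01, TopHat2 2.1.1 and cutadapt 2.10. The table sums are not library depths, which are unknown.

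Tests on raw counts used the quasi-likelihood F test of edgeR 4.0.16 under R 4.3.3. All 11 libraries entered 1 model of group means, with offsets from the deposited size factors and the default filter by group, which kept 176 genes. Calls were made at a two-sided Benjamini-Hochberg adjusted p under 0.05. SE is the size of the fold change divided by the root of F. The code was tested on simulated data. Alternatives used TMM or median-of-ratios factors, DESeq2 1.42.0, limma 3.58.1 on log2(normalised count + 1) or + 10, a library-set term, a replicate block, no filter, only the groups compared, and each library left out. The sets were found by trying 957 divisions of the libraries: the best left a median residual of 4.2e-05% of the mean and the next 1.71%. Replicates differed by more than counting noise (chi-square per degree of freedom at least 20.4).

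The 3 genes and the gene lists were chosen with earlier results of these data known. Named were the 3 genes, all genes of the lists in the table and the 3 genes most like each, leaving out pseudogenes, predicted models and genes averaging under 10 normalised counts; 1 gene that this rule names is not reported here. All 3 genes matched the RefSeq promoter table (GRCm38.p6). Exon lengths are from GENCODE M21, of that build and not the authors'.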

Additional observations from a re-analysis of the deposited data

Results flagged for a closer look

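In 3 of the 42 groups of 4 libraries examined, 1 library stood far from the rest, where chance gives about 1 in 20. Removal replicate 1 had the lowest Zfp36l1, 5052 normalised counts against 5898 to 5914 in the other removal libraries (gap of 0.981 of the range). Naive replicate 1 had the highest Socs4, 644.5 against 547.4 to 557.2 in the other naive libraries (gap of 0.899). Naive replicate 3 had the lowest Zfp36, 9919 against 12037 to 12316 in the other naive libraries (gap of 0.883). No group of Ptgs2, Cebpb or Socs3 met this rule.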

How the results depend on the processing

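Over the 9 results on Ptgs2, Cebpb and Socs3 and 20 other settings, 176 of 180 values kept their direction and their side of the threshold, and none changed direction. The cause of the exceptions was not tested. With TMM the Socs3 call for removal against naive was lost (-0.66). With a term for the library sets, Cebpb for removal against naive (-0.38) and Socs3 for removal against ligature (0.59) were called. Leaving out single libraries gave Cebpb -0.42 to -0.22 for removal against naive. With the library-set term 126 genes were called between removal and naive, against 66, and 47 between removal and ligature, against 35. Leaving out single libraries gave 38 to 78 calls between removal and naive, and 0 to 49 between removal and ligature. For removal against ligature the replicate block gave 8 calls, 7 higher and 1 lower. Same-numbered libraries did not deviate together (correlations of -0.49 to 0.54), so the numbers are not taken as pairs; the block changed no call of the 3 genes. TMM gave 64 higher and 50 lower calls for ligature against naive, where the deposited factors gave 50 and 100, and 50 higher and 22 lower for removal against naive, where they gave 23 and 43. For removal against ligature TMM gave 17 higher and 12 lower, and median-of-ratios factors 16 and 30, where the deposited factors gave 30 and 5.

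Of 1079 values of other named genes, 959 kept direction and side, 80 lost a call, 23 gained one and 17 changed direction. TMM and median-of-ratios factors shift all genes nearly alike, so values near 0 can turn with them. Zfp36l1 turned to 0.13 for ligature, 0.015 for removal against naive and -0.11 for removal against ligature with TMM, and to 0.12 and -0.16 with median-of-ratios factors. With TMM, Trib1 (0.032), Rab31 (0.015) and Tmcc1 (0.060) turned for removal against naive, Tmcc1 also with median-of-ratios factors (0.010). Those factors turned Myd88 (-0.044) and Dusp1 (-0.00691) for removal against ligature. Defb3 for removal against naive turned in limma (-0.043 and -0.029) and ranged from -0.28 to 0.43, with -0.055 without naive replicate 1, when libraries were left out. Krt10 for removal against ligature ranged from -0.27 to 0.085, with 0.015 without removal replicate 1. For Ptgs2, with 17 to 103 counts, counting error came to 18.5%, 20.6% and 12.4% of the count in removal, ligature and naive libraries, beside an observed variation of 7.17%, 40.1% and 39.0%. For Cebpb it was at most 2.05% and for Socs3 at most 3.49%.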
